A study of Mus musculus with 8 samples.

Results

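The prostanoid receptors of the mouse uterus, the carrier that takes prostaglandins up into cells and the enzymes that inactivate them were examined in late pregnancy with and without cyclooxygenase-1 (Cox-1). They are 10 of the 13120 genes named in the deposited table, chosen by name: the receptors Ptger1, Ptger2, Ptger3, Ptger4, Ptgfr, Ptgir and Tbxa2r, the carrier Slco2a1 and the enzymes Hpgd and Ptgr1. Every probe set with one of these symbols in the platform annotation was taken, which gave 15 of the 27940 probe sets left in the deposited table without its array controls. Uterine RNA of 4 Cox-1 KO and 4 wild-type mice was hybridized to Affymetrix mouse 430 2.0 arrays, with the RNA of a single pregnant mouse on each array. The Cox-1 KO mice lack Ptgs1, the gene of Cox-1, in every cell and have a C57BL/6 x Sv129 background by the labels. The wild-type mice are C57BL/6. All were females of 6 to 16 weeks by the labels, taken at gestational day 18.0 without any treatment. The deletion and the strain background differ together between the groups, so their effects cannot be told apart. Conceptuses were taken out of the uterus before RNA was isolated, by the methods.

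Prostaglandins are made from arachidonic acid by the cyclooxygenases, leave the cell and act close by through G protein-coupled receptors. Ptger1 to Ptger4 encode the receptors of prostaglandin E2, Ptgfr that of prostaglandin F2α, Ptgir that of prostacyclin and Tbxa2r that of thromboxane. Receptors that raise cyclic AMP relax smooth muscle, whereas receptors that raise calcium or lower cyclic AMP contract it. Uptake by the carrier encoded by Slco2a1, oxidation by Hpgd and reduction by Ptgr1 end the signal. In the mouse, prostaglandin F2α from the uterus brings about luteolysis before birth, and Cox-1 KO mice deliver late. The comparison asks whether the receiving and clearing side of the pathway differs in a uterus that lacks one of its cyclooxygenases.

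Values are MAS5 signals on a linear scale, scaled by the authors to a target intensity of 1000, and differences are log2 signal of Cox-1 KO minus wild-type from limma over 26444 probe sets. Array medians lay between 731 and 757, and the number of arrays limits the precision. The signal of Ptgs1, whose probe set was named through the additional file of the study, was 76 to 136 on the Cox-1 KO arrays and 7048 to 10756 on the wild-type arrays (limma adjusted p = 5.66e-08). Smooth muscle was well represented, with Acta2 at 69584 in Cox-1 KO and 66842 in wild-type uterus on average. Transcripts of yolk sac stood apart on 4 of the 8 arrays. Of 13 listed yolk sac genes 12 were measured, none of them at 0, and all 12 had a higher mean in the Cox-1 KO uterus, 9 with an unadjusted p under 0.05 and none with an adjusted p under 0.05. Their summed signal ran between 40120 and 405299 on Cox-1 KO arrays and between 29690 and 272372 on wild-type arrays. Of that sum, Rbp4 had 34145 to 39535 on Cox-1 KO and 26827 to 32440 on wild-type arrays, and it made up most of the lowest sums. Rbp4 did not mark the 4 arrays and is among the 9 with an unadjusted p under 0.05. Apoa1, an apolipoprotein of yolk sac and liver, had 73950, 631, 65189 and 56615 on Cox-1 KO replicates 1 to 4, against 183, 481, 505 and 55059 on wild-type replicates 1 to 4. Cox-1 KO replicates 1, 3 and 4 and wild-type replicate 4 are therefore called high in Apoa1 in what follows. A fit without these 4 arrays sets a single Cox-1 KO array against wild-type replicates 1 to 3. Of 11 listed trophoblast genes 3 were measured. Tpbpa had 13871 to 17387 on Cox-1 KO and 5604 to 18147 on wild-type arrays, lowest on wild-type replicate 1. Psg16 and Ctsj were dimmer and had lower means in Cox-1 KO uterus. The part of trophoblast in the signals of the 10 genes was not tested.

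No receptor, carrier or inactivating enzyme differed between the genotypes after adjustment over all probe sets. Of the 15 probe sets 13 were tested, and none had an adjusted p under 0.05 with limma (0.526 at the lowest), where 0.0113% of all probe sets did. At an unadjusted p under 0.05 there were 2 of the 13, both lower in the Cox-1 KO uterus, against 8.81% of all probe sets (5.12% lower and 3.69% higher). They belong to the prostaglandin E2 receptors Ptger3 and Ptger2. For none of the 15 probe sets did the arrays of the genotypes lie fully apart, which 4.41% of all tested probe sets did. The 13 had 6 positive and 7 negative differences with a median of -0.05 on the log2 scale, and 57.5% of all tested probe sets were negative with a median of -0.03. The 13 tested probe sets had signals of 100 or more on all 8 arrays, so that none of them entered the test through one genotype. The 2 probe sets not tested are those of Ptger1 and Ptgfr.

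**Figure D1:**
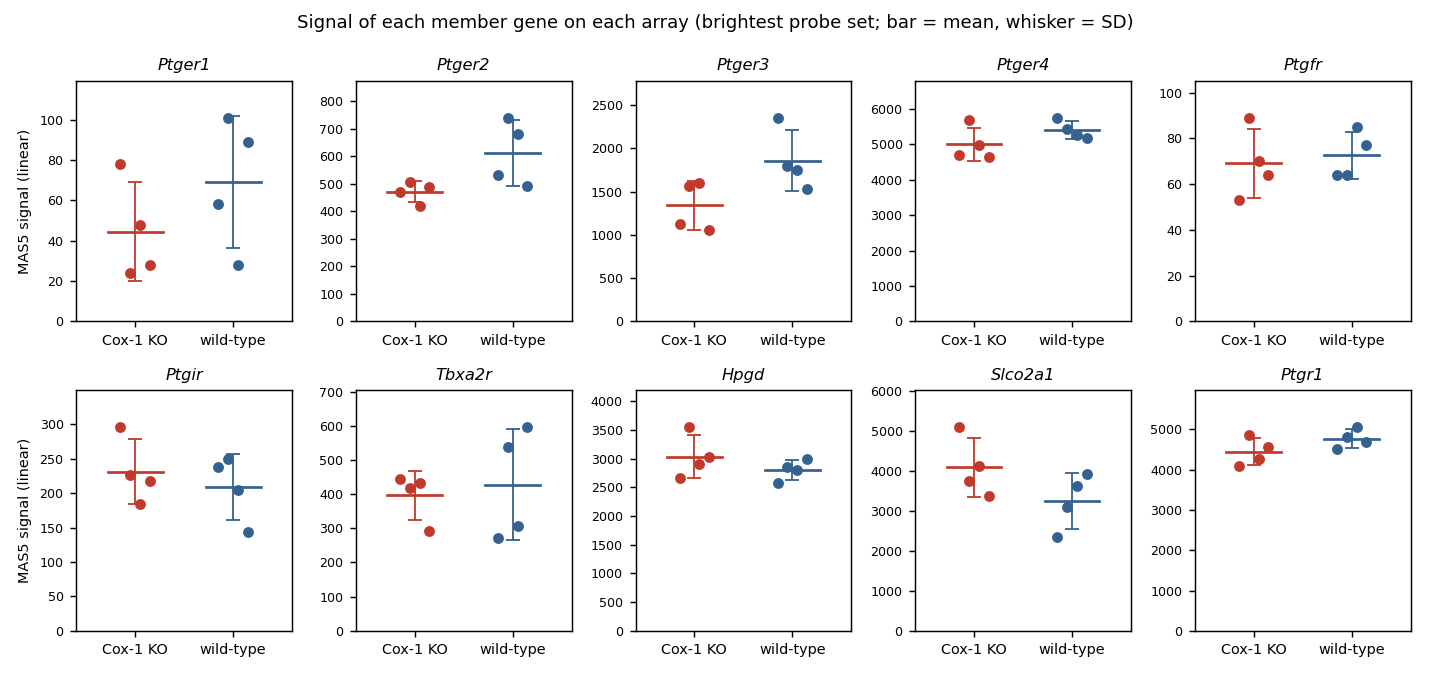
MAS5 signal on a linear axis from 0 for the brightest probe set of each of the 10 genes, with Cox-1 KO arrays on the left and wild-type arrays on the right of each panel (points are arrays, bars the mean, whiskers the SD, n = 4 each). The groups overlap in every panel, and Ptger3 and Ptger2 have the lowest Cox-1 KO signals relative to wild-type among the tested genes.

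**Figure D2:**
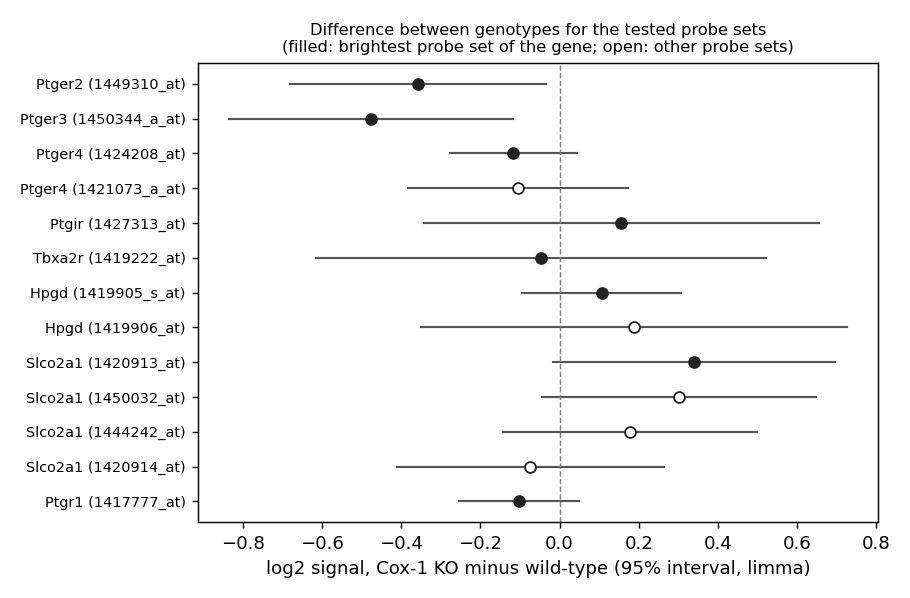
Log2 difference, Cox-1 KO minus wild-type, with its 95% interval from limma for the 13 tested probe sets, filled for the brightest probe set of a gene. The intervals of Ptger2 and Ptger3 lie below 0 before adjustment, and those of the other probe sets include 0.

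Ptger3 encodes EP3, the prostaglandin E2 receptor that couples mainly to Gi and lowers cyclic AMP, and it is known for contraction of the myometrium. Its signal was 1131, 1570, 1597 and 1060 on Cox-1 KO replicates 1 to 4, against 2353, 1790, 1746 and 1531 on wild-type replicates 1 to 4. Wild-type replicate 4 lay below Cox-1 KO replicates 2 and 3, and wild-type replicate 1 was the highest array of all. The mean was 1339.5 ± 283 in Cox-1 KO and 1855 ± 351 in wild-type uterus (SD, n = 4 each). The log2 difference was -0.48 (standard error 0.163, 95% interval -0.84 to -0.12), with p = 0.0139 and an adjusted p = 0.526 by limma, and the exact permutation test gave a two-sided p = 0.0857. The smallest p that 4 arrays against 4 can give in that test is 0.0286. With the level of yolk sac transcripts as a covariate the log2 difference was -0.27 (limma adjusted p = 0.960). Without the 4 arrays high in Apoa1 it was -0.31, with a single Cox-1 KO array left. The 8 smooth muscle markers beside it had a summed signal of 273510 to 296418 on Cox-1 KO arrays and 260545 to 296210 on wild-type arrays and a median log2 difference of -0.05, with none at 0. The brightest markers carry that sum, and the dimmer Lmod1, leiomodin, had 1169 to 1779 on Cox-1 KO and 1806 to 1933 on wild-type arrays (log2 difference -0.26, limma adjusted p = 0.569). Smtn, smoothelin, had a log2 difference of -0.13 (limma adjusted p = 0.538). The part of smooth muscle in the signal of Ptger3 was not tested. In bulk tissue, fewer cells that carry a transcript and less of it per cell cannot be told apart.

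Ptger2 encodes EP2, which couples to Gs, raises cyclic AMP and relaxes smooth muscle, and which is also known for its part in ovulation and fertilization in mice. Its signal was 471, 506, 419 and 490 on Cox-1 KO replicates 1 to 4, against 533, 740, 682 and 491 on wild-type replicates 1 to 4. The Cox-1 KO arrays lay within a range of 1.21-fold and the wild-type arrays within 1.51-fold, and the groups overlapped only through Cox-1 KO replicate 2 and wild-type replicate 4. The mean was 471.5 ± 37.8 in Cox-1 KO and 611.5 ± 119 in wild-type uterus (SD, n = 4 each). This is a log2 difference of -0.36 (standard error 0.147, 95% interval -0.68 to -0.03), with p = 0.0333 and an adjusted p = 0.541 by limma and a two-sided p = 0.0571 in the exact permutation test. The 4 arrays high in Apoa1 had the 4 lowest signals of Ptger2, with 419 to 490 on Cox-1 KO replicates 1, 3 and 4 and 491 on wild-type replicate 4. On the other 4 arrays it was 506 on Cox-1 KO replicate 2 and 533 to 740 on wild-type replicates 1 to 3. With the yolk sac level as a covariate the log2 difference was -0.20 (limma adjusted p = 0.978), and without these 4 arrays it was -0.35, with a single Cox-1 KO array left. With the covariate none of the 13 probe sets had an unadjusted p under 0.05 by limma, where 5.33% of all probe sets did. The yolk sac level goes partly with genotype, being high on Cox-1 KO replicates 1, 3 and 4 and on wild-type replicate 4. The fit therefore separates the parts of the 2 poorly, and the cause was not tested.

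**Figure D3:**
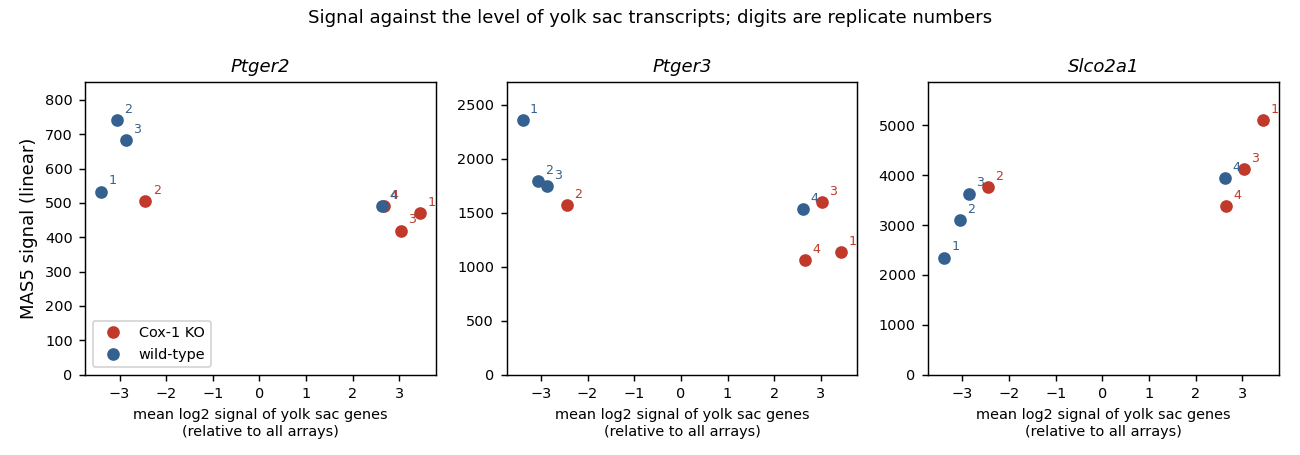
Signal of Ptger2, Ptger3 and Slco2a1 (linear axis from 0) against the mean log2 signal of 12 yolk sac genes relative to the mean of all arrays, with Cox-1 KO in red, wild-type in blue and digits for the replicate. Of the 4 arrays on the right, 3 are Cox-1 KO and 1 is wild-type, and for Ptger2 these have the 4 lowest signals.

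The promoter windows of Ptger2 and Ptger3 are shown because these had the smallest p of the 10 genes. The windows hold 250 bases before and 50 after the annotated start and come from RefSeq (GRCm38.p6), which gave a window for 9 of the 10 genes (all but Ptger1). Capitals mark every match, on either strand, to the estrogen response half-site GGTCA, the progesterone response half-site AGAACA, the Ets core CCGGAA, the cyclic AMP response half-site TGACG or the GC box GGGCGG. The first window is that of Ptger2 at chr14:44987861-44988160 and the second that of Ptger3 at chr3:157566626-157566925, both on the + strand and both written 5′ to 3′.
Ptger2: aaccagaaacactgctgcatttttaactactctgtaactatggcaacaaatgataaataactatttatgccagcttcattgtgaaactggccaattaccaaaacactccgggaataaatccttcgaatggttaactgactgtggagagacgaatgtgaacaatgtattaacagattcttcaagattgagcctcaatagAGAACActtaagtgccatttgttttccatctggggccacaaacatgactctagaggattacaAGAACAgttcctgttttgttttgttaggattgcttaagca
Ptger3: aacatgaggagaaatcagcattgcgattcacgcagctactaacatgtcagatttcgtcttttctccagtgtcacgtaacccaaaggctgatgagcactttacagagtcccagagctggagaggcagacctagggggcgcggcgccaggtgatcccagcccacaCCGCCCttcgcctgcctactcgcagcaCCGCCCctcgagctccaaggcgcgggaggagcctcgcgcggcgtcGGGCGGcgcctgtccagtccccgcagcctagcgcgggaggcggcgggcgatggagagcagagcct
The Ptger2 window has a GC content of 37.7% and the Ptger3 window one of 64.0%, and the median of 32851 such windows is 52.7%. The capitals in Ptger2 are 2 matches to the progesterone response half-site, which is found in 19.0% of the windows. The capitals in Ptger3 are 3 matches to the GC box, which is found in 35.7% of the windows. Neither holds the estrogen response half-site (40.5% of windows), the Ets core (14.9%) or the cyclic AMP response half-site (20.8%). None of these matches overlap. A match to these letters is a description of the window and not a bound site.

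Ptger4 encodes EP4, the other prostaglandin E2 receptor that couples to Gs. On its brighter probe set the signal was 4692, 5669, 4978 and 4639 on Cox-1 KO replicates 1 to 4, against 5745, 5429, 5261 and 5173 on wild-type replicates 1 to 4. Cox-1 KO replicate 2 lay among the wild-type arrays and the other 3 lay below them. The mean was 4994.5 ± 474 in Cox-1 KO and 5402 ± 252 in wild-type uterus (SD, n = 4 each). The log2 difference was -0.12 (95% interval -0.28 to 0.04, limma adjusted p = 0.662). As for Ptger2, the 4 arrays high in Apoa1 had the 4 lowest signals, with 4639 to 4978 on Cox-1 KO replicates 1, 3 and 4 and 5173 on wild-type replicate 4. The log2 difference was -0.018 with the yolk sac level as a covariate, and without these 4 arrays its sign turned (0.050). The dimmer probe set of Ptger4 gave a log2 difference of -0.11 (95% interval -0.38 to 0.17), at 717.75 ± 91.5 in Cox-1 KO and 771 ± 91.4 in wild-type uterus (SD, n = 4 each). On it the 4 arrays high in Apoa1 were not the 4 lowest. Wild-type replicate 2, low in Apoa1, had 666, below Cox-1 KO replicates 1 and 3 (731 and 768) and wild-type replicate 4 (761).

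Ptger1 and Ptgfr encode EP1 and FP, the receptors that raise calcium in response to prostaglandin E2 and prostaglandin F2α, and both were under the signal minimum of the test across all probe sets. Ptger1 had a signal of 78, 24, 48 and 28 on Cox-1 KO replicates 1 to 4 and 58, 101, 28 and 89 on wild-type replicates 1 to 4. A single array thus reached 100. Its probe set is of the kind (_s_at) that can match transcripts of other genes as well. Ptgfr had a signal of 53, 89, 70 and 64 on Cox-1 KO replicates 1 to 4 and 64, 64, 85 and 77 on wild-type replicates 1 to 4, and no array reached 100. The groups overlapped for both genes, and the exact permutation test gave a two-sided p = 0.286 for Ptger1 and p = 0.686 for Ptgfr. Ptgfr is known to be induced in the mouse myometrium close to delivery. With no detection calls in the deposited table and a single probe set in it for each gene, a signal under 100 does not show that the receptor is absent.

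Ptgir encodes the prostacyclin receptor IP, which couples to Gs. It was measured at 296, 227, 185 and 218 on Cox-1 KO replicates 1 to 4, against 238, 250, 205 and 144 on wild-type replicates 1 to 4, so that most arrays of both genotypes lay within the same range. The log2 difference was 0.16 with a 95% interval of -0.34 to 0.66 (limma adjusted p = 0.862). Tbxa2r encodes the thromboxane receptor TP of platelets and vascular smooth muscle, which raises calcium. Its signal was 445, 418, 433 and 291 on Cox-1 KO replicates 1 to 4, against 273, 537, 306 and 596 on wild-type replicates 1 to 4. The wild-type arrays alone differed by up to 2.18-fold, with replicates 2 and 4 above every Cox-1 KO array and replicate 1 below all of them. The log2 difference of -0.05 had a 95% interval of -0.62 to 0.52 (limma adjusted p = 0.971), a wide range that takes in both directions. For both of these genes the sign turned when wild-type replicate 4 was left out, to -0.01 for Ptgir and 0.14 for Tbxa2r. With the yolk sac level as a covariate the log2 difference was 0.35 for Ptgir and -0.26 for Tbxa2r.

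Among the platelet markers listed beside Tbxa2r, 4 of 8 were named in the deposited table, none of them at 0. Their summed signal was 5814 to 7441 on Cox-1 KO arrays and 6010 to 6665 on wild-type arrays. Pf4, a platelet chemokine, had a mean signal of 4972 in Cox-1 KO and 5261 in wild-type uterus. Ppbp, another platelet chemokine, had 1487, 493, 1396 and 369 on Cox-1 KO replicates 1 to 4, against 258, 319, 365 and 299 on wild-type replicates 1 to 4 (limma adjusted p = 0.477). Cox-1 KO replicates 1 and 3 thus carry its higher mean. Gp1bb, a subunit of a platelet adhesion receptor, had a mean of 282 in Cox-1 KO and 192.5 in wild-type uterus (limma adjusted p = 0.526). The part of platelets in the signal of Tbxa2r was not tested.

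Slco2a1, the prostaglandin transporter of endothelium and epithelia, had the largest positive difference of the 10 genes, and it did not pass. Its brightest probe set (1420913_at) had a signal of 5098, 3761, 4123 and 3372 on Cox-1 KO replicates 1 to 4, against 2345, 3098, 3631 and 3935 on wild-type replicates 1 to 4. Cox-1 KO replicate 1 was the highest array and wild-type replicate 1 the lowest, and the other 6 arrays overlapped between 3098 and 4123. The mean was 4088.5 ± 740 in Cox-1 KO and 3252.25 ± 697 in wild-type uterus (SD, n = 4 each), a log2 difference of 0.34 (standard error 0.162, 95% interval -0.02 to 0.70, limma adjusted p = 0.575). The exact permutation test gave a two-sided p = 0.171. The log2 difference was 0.15 with the yolk sac level as a covariate, 0.34 without the 4 arrays high in Apoa1, 0.19 without wild-type replicate 1 and 0.44 without wild-type replicate 4.

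The 4 probe sets of Slco2a1 did not give the same direction. Probe set 1450032_at gave a log2 difference of 0.30 (95% interval -0.05 to 0.65) and probe set 1444242_at one of 0.18 (95% interval -0.14 to 0.50). Probe set 1420914_at gave -0.07 (95% interval -0.41 to 0.26), with signals of 548, 484, 525 and 349 on Cox-1 KO replicates 1 to 4 and 467, 455, 535 and 525 on wild-type replicates 1 to 4. Cox-1 KO replicate 1 was the highest of the 8 arrays on each of the 4 probe sets. Wild-type replicate 1 was the lowest on the 3 brighter ones, and Cox-1 KO replicate 4 on the dimmest. The mean of the 4 probe sets gave a log2 difference of 0.19 (limma adjusted p = 0.717). Of the cell types that carry this transporter, all 8 epithelial markers had a positive difference (median 0.16 on the log2 scale). Among all 26444 tested probe sets, 11249 had a positive difference. Of the 8 markers, 1 had an unadjusted p under 0.05 by limma, against 8.81% of all probe sets. The summed signal of the epithelial markers was 111957 to 139405 on Cox-1 KO arrays and 90862 to 117143 on wild-type arrays. The highest sum was that of Cox-1 KO replicate 1 and the lowest that of wild-type replicate 1, the arrays highest and lowest for the brightest probe set of Slco2a1. This match is not particular to epithelium. The same arrays were highest and lowest for the summed yolk sac signal (405299 and 29690) and for Acta2 of smooth muscle (72540 and 59991). Endothelial markers had a negative difference for 7 of 8 genes (median -0.04 on the log2 scale), where 57.5% of all tested probe sets were negative. Their summed signal was 15604 to 17566 on Cox-1 KO arrays and 16225 to 18118 on wild-type arrays. Pecam1 had 2500 to 3227 on Cox-1 KO and 3306 to 3667 on wild-type arrays (log2 difference -0.29, limma adjusted p = 0.423), and Cdh5 had the positive difference (0.22, limma adjusted p = 0.654). None of these markers was at 0, and the part of epithelium and endothelium in the signal of Slco2a1 was not tested.

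**Figure D4:**
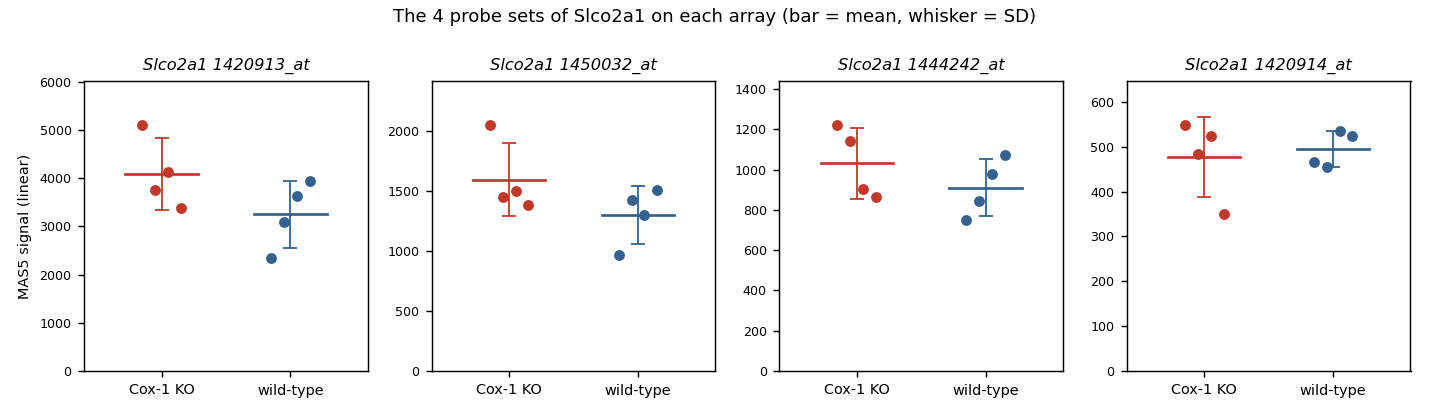
MAS5 signal on a linear axis from 0 for the 4 probe sets of Slco2a1, with Cox-1 KO arrays left of wild-type arrays (points are arrays, bars the mean, whiskers the SD, n = 4 each). The 3 brighter probe sets have a higher Cox-1 KO mean and overlapping groups, and the dimmest (1420914_at) has a mean of 476.5 in Cox-1 KO and 495.5 in wild-type uterus.

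Hpgd and Ptgr1, the enzymes of prostaglandin breakdown, had the narrowest intervals together with Ptger4. Hpgd is 15-hydroxyprostaglandin dehydrogenase, which oxidizes prostaglandins in the first step of their inactivation. Its signal was 2658, 3551, 2912 and 3023 on Cox-1 KO replicates 1 to 4, against 2572, 2856, 2809 and 2999 on wild-type replicates 1 to 4. Cox-1 KO replicate 2 was the highest array, and the others of both genotypes lay between 2572 and 3023. The mean was 3036 ± 376 in Cox-1 KO and 2809 ± 177 in wild-type uterus (SD, n = 4 each), a log2 difference of 0.11 with a 95% interval of -0.10 to 0.31 (limma adjusted p = 0.756). The size rested on Cox-1 KO replicate 2: the log2 difference was 0.028 without that array and 0.37 without the 4 arrays high in Apoa1, where it is the only array of its genotype. A second probe set of Hpgd was close to the limit of 100, at 141 to 165 on Cox-1 KO and 102 to 165 on wild-type arrays, and gave a log2 difference of 0.19 (95% interval -0.35 to 0.73).

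Ptgr1 encodes prostaglandin reductase, which reduces the 15-keto prostaglandins made by Hpgd and also inactivates leukotriene B4. Its signal was 4097, 4857, 4264 and 4559 on Cox-1 KO replicates 1 to 4, against 4506, 4816, 5051 and 4674 on wild-type replicates 1 to 4. The 8 arrays lay within a narrow band in which the genotypes overlapped. The mean was 4444.25 ± 335 in Cox-1 KO and 4761.75 ± 231 in wild-type uterus (SD, n = 4 each). The log2 difference was -0.10 with a 95% interval of -0.25 to 0.05 (limma adjusted p = 0.688), which corresponds to 0.839 to 1.04 times the wild-type level. It was -0.039 with the yolk sac level as a covariate, and the sign turned without the 4 arrays high in Apoa1 (0.021).

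Around these genes, 51 other genes of the pathway were tested in 5 lists, leaving Ptgs1 aside, and none had an adjusted p under 0.05 (0.401 at the lowest, limma). At an unadjusted p under 0.05 there were 4 of the 51 (7.84%), with 2 higher and 2 lower, close to the 8.81% of all probe sets. The median log2 difference of the 51 was 0.0058. Of the 51 genes 2 had genotypes that lay apart, where 4.41% of all probe sets did. Both, Ptges2 and Ptgis, are among the 11 measured genes of prostaglandin synthesis, which include Ptgs1. Ptgds, a prostaglandin D synthase with the smallest p of the 51, had 1126, 1466, 1236 and 1629 on Cox-1 KO replicates 1 to 4, against 763, 1151, 945 and 875 on wild-type replicates 1 to 4, with a slight overlap (log2 difference 0.55, limma adjusted p = 0.401). Ptges2, a prostaglandin E synthase, had 767 to 836 on Cox-1 KO and 567 to 665 on wild-type arrays (log2 difference 0.32, limma adjusted p = 0.488). Ptgis, prostacyclin synthase, had 7087 to 7602 on Cox-1 KO and 7670 to 8017 on wild-type arrays (log2 difference -0.12, limma adjusted p = 0.552). Of the other carriers and metabolizing enzymes 8 of 9 were measured, and Slco4a1, an organic anion transporter, had the smallest p. Its signal was 2226, 3144, 2085 and 2409 on Cox-1 KO replicates 1 to 4, against 2932, 3118, 3326 and 3413 on wild-type replicates 1 to 4 (log2 difference -0.39, limma adjusted p = 0.480). Cox-1 KO replicate 2, the array of that genotype low in Apoa1, was the only one to reach the wild-type range.

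Of 9 other prostanoid receptors and receptor partners 7 were measured, with log2 differences between -0.20 for Ptgdr, a receptor of prostaglandin D2, and 0.34 for Grk3, a kinase that desensitizes receptors, and none had an unadjusted p under 0.05. Downstream of the receptors, the 22 genes of Gs and cyclic AMP signalling ran between -0.19 and 0.23 on the log2 scale, and none had an unadjusted p under 0.05. Pde4d, a phosphodiesterase that breaks down cyclic AMP, had the smallest p of them with a log2 difference of -0.16. The 4 Gi genes, through which Ptger3 acts, had log2 differences between -0.14 and 0.17.

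**Figure D5:**
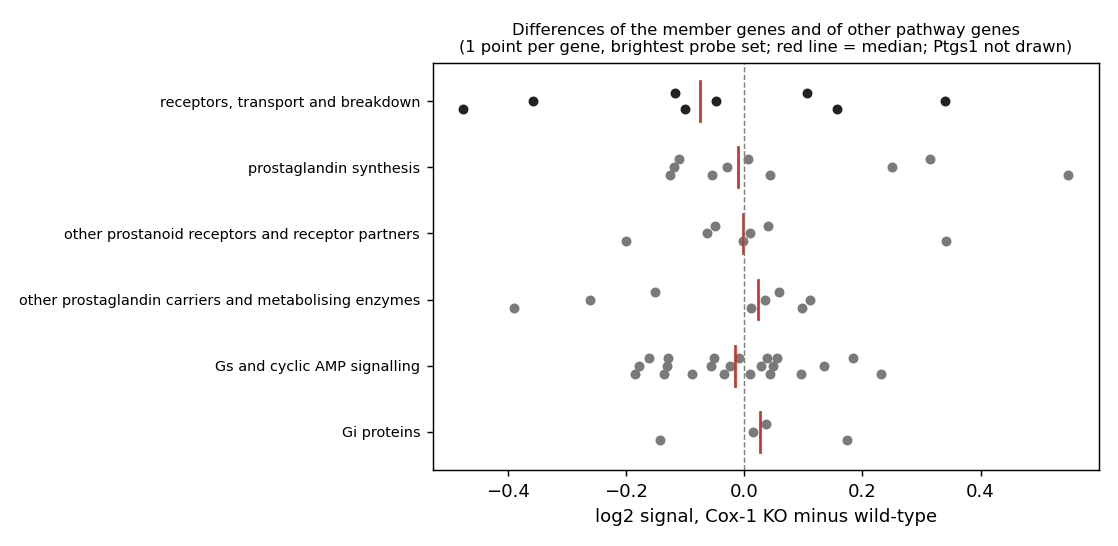
Log2 difference, Cox-1 KO minus wild-type, with 1 point per gene on its brightest probe set and a red line at the median of each row. The 8 tested genes of this report stand in the top row between -0.48 and 0.34, and the 51 other pathway genes in the rows under it have a median of 0.0058 (Ptgs1 is not drawn).

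The arrays on which Ptger3 was high or low could be matched to other transcripts. Among 22642 tested probe sets with a single gene symbol, those most like Ptger3 over the 8 arrays were of Pln (r = 0.989), Mrpl45 (r = 0.987) and Nktr (r = 0.974), by Pearson correlation of log2 signal. Pln encodes phospholamban, which restrains the calcium pump of the sarcoplasmic reticulum in muscle. Pln had 291, 382, 404 and 267 on Cox-1 KO replicates 1 to 4, against 655, 437, 441 and 375 on wild-type replicates 1 to 4, a log2 difference of -0.50 (limma adjusted p = 0.539). Mrpl45 and Nktr had log2 differences of -0.14 and -0.24 (limma adjusted p = 0.645 and 0.654). Transcripts picked for their likeness to Ptger3 share its direction by that choice. Tbxa2r, the tested gene with the largest spread over the 8 arrays, was most like Nsun4 (r = 0.939), Ap5s1 (r = 0.935) and Chchd4 (r = 0.934). These coefficients are the highest of many, over 8 arrays that share their genotypes and their yolk sac levels, and are given as a description without a p-value.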

How the data were processed

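Per the labels and the methods, RNA of 8 gravid d18.0 uteri (4 Cox-1 KO, 4 wild-type) was hybridized to Affymetrix mouse 430 2.0 arrays. The authors computed signal intensity in MAS5, with a target of 1000 for every array. The deposited intensity values are linear, for 28000 probe sets and without detection calls. The methods limited their own analysis to probe sets called present in enough samples; whether the deposited table was reduced in that way is not given in the sources used here. Genes are named from the platform annotation, except Ptgs1, whose probe set was paired with its symbol through the additional file of the study.

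Signals were taken to log2 after the single value under 1 was raised to 1. Probe sets that reached 100 on 4 arrays or more, array controls left out, were tested with limma 3.58.1 (R 4.3.3), with a trend on mean signal and Benjamini-Hochberg adjustment over all 26444. Exact permutation tests are two-sided on mean log2 signal. A gene is represented by its brightest probe set. All 10 genes are reported. Of each pathway list, genes with one of the 4 smallest p or with genotypes that lay apart could be named, as could markers and the 3 probe sets most like Ptger3 and Tbxa2r. The 10 genes and all lists were chosen with earlier results of these data known. Relations between the mice of a group are not stated, so p-values measure the spread between these mice.

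Alternatives were log2(signal + 32), a floor at 100, a filter at 200 or none, median centring, quantile normalization, a fit without trend, a replicate block, each array left out, a yolk sac covariate, the fit without the 4 arrays high in Apoa1, other probe sets of a gene, and the methods' t-test with their fold threshold of 1.5. A further list of signalling genes is not reported here.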

Additional observations from a re-analysis of the deposited data

Results flagged for a closer look

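The signal of Slco2a1 on Cox-1 KO replicate 1 stood apart from the other Cox-1 KO arrays on probe set 1450032_at, at 2048 against 1386 to 1498 on Cox-1 KO replicates 2 to 4 and 962 to 1509 on the wild-type arrays. The gap to the next array was 0.831 of the range of the group, just above Dixon's 95% critical value. It was the only one of 30 groups of 4 arrays (15 probe sets in each genotype) to pass, and chance alone gives about 1 in 20. The same array was also the highest on the other 3 probe sets of Slco2a1 and had the highest summed signal of yolk sac genes (405299).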

How the results depend on the processing

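No probe set of the 10 genes had an adjusted p under 0.05 under any alternative, with limma or with the methods' t-test, and none met the methods' threshold on p and fold (0 in each case). Of the 13 tested probe sets, 2 had an unadjusted p under 0.05. This count was 0 with the yolk sac covariate (5.33% of all probe sets) and 0 with the methods' t-test (6.19%). Without the 4 arrays high in Apoa1 it was 1 (3.82%), which was Hpgd and neither Ptger2 nor Ptger3. It was 1 to 4 when single arrays were left out (6.46% to 11.5% of all probe sets): 1 when Cox-1 KO replicate 1, Cox-1 KO replicate 3 or wild-type replicate 2 was the array left out, 3 for Cox-1 KO replicate 2 or 4, and 4 for wild-type replicate 4. It was 2 with a replicate block. Whether the replicate numbers pair the mice is not given by the labels. The methods state that balanced sets of samples were processed side by side. Same-numbered arrays deviated from their group means with correlations of -0.25, 0.22, -0.18 and 0.17. These values cannot decide on a pairing, since the yolk sac levels also enter the deviations, and the block changed no call.

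Of 160 log2 differences of the 8 tested genes under other settings, 151 kept their direction and 9 did not. Part of this count was fixed beforehand. The other filters, the floor at 100, the fit without trend, the replicate block and the methods' t-test left these differences unchanged. Those settings could not turn a sign, so the count does not measure how stable the directions are. Without the 4 arrays high in Apoa1 the sign turned for Ptger4 (0.050), Ptgir (-0.020), Tbxa2r (0.23) and Ptgr1 (0.021), with a single Cox-1 KO array left, assumed to vary like the others. When single arrays were left out, Tbxa2r ran between -0.24 and 0.14, with 0.095 for Cox-1 KO replicate 4, 0.089 for wild-type replicate 2 and 0.14 for wild-type replicate 4. Ptgir ran between -0.013, for wild-type replicate 4, and 0.26. Probe set 1420914_at gave -0.074 for Slco2a1. The causes were not tested. Ptger3 ran between -0.57 and -0.27 and Ptger2 between -0.46 and -0.20 over all settings. The number of all probe sets past an adjusted p of 0.05 was 3. It was 10 with log2(signal + 32), 12 with a floor at 100, 11 with median centring, 6 without the 4 arrays high in Apoa1 and 2 to 25 when single arrays were left out (25 without wild-type replicate 1). Ptger1 and Ptgfr lie under the signal minimum, and with no detection calls their values may be background.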
